A study of Mus musculus with 10 samples.

Results

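The genes described are 7 regulators of transcription in blood cells: Fli1, Ets1, Elf4, Zbtb16, Tcf12, Rora and Pou2af1. Their RNA was compared between haematopoietic stem cells (HSCs) that carry the surface protein Jam2 and HSCs that do not. The genes were chosen by name among the 2721 genes with a single symbol that fall in one stretch of the array table, out of 22180 such genes in the whole table. All 7 were found there, each with 1 row. In RefSeq, 6 lie on chromosome 9 and Elf4 lies on chromosome X, and no protein-coding gene separates Fli1 from Ets1.

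The study measured total RNA on 10 single-colour arrays, 5 of Jam2+ and 5 of Jam2- HSCs. All cells were sorted as CD150+ CD48- c-kit+ Sca-I+ and free of lineage markers, from 5 male wildtype mice of the C57BL/6 SJL strain, so the groups share genotype, sex, strain and treatment and differ in the Jam2 gate. No source used here gives the ages of the mice or the number of cells per array. The arrays are numbered 1, 2, 4, 5 and 6 in both groups. The labels do not say that a number is a mouse, so the p-values measure the spread between arrays. With 5 mice named for 10 arrays, the arrays may not be independent animals, although the tests treat them as independent.

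ETS proteins such as Fli1, Ets1 and Elf4 share a DNA-binding domain that recognises a GGAA core. Fli1 is known for its role in HSCs and megakaryocytes, Ets1 in T, B and NK cells, and Elf4 in NK cell development and in the quiescence of stem cells. Zbtb16 encodes the zinc finger protein PLZF, known from HSCs and innate-like T cells, and Tcf12 encodes the E protein HEB, which pairs with other helix-loop-helix factors. Rora is a nuclear receptor of the circadian clock and of innate lymphoid cells. Pou2af1 encodes a B cell coactivator that binds the octamer factors Pou2f1 and Pou2f2.

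The identity of every row named here is inferred. In the deposited table the IDs do not sit beside their own values, and the last 5562 IDs were given the first 5562 rows of values in order. With that placement, 24 rows of ribosomal proteins had a median log2 value of 12.09 and 140 rows of olfactory and vomeronasal receptors had a median of 3.63. The 9 protein-coding genes of the mitochondrial genome in this stretch, which cells transcribe in abundance, lay between 8.75 and 13.34, against 2.35 to 7.67 for the same IDs as deposited. In these male mice the Y-linked genes Eif2s3y, Kdm5d and Uty lay at 8.85, 7.69 and 7.95, and Xist, which is transcribed from the silenced X of females, at 4.61. Some rows repeat each other's values exactly, and at this placement 37 of 37 such pairs carried the same gene, from 12 genes. All 41345 possible lengths of the stretch were tried, and the next best, 1 row longer, gave 17 of 30 pairs.

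**Figure D1:**
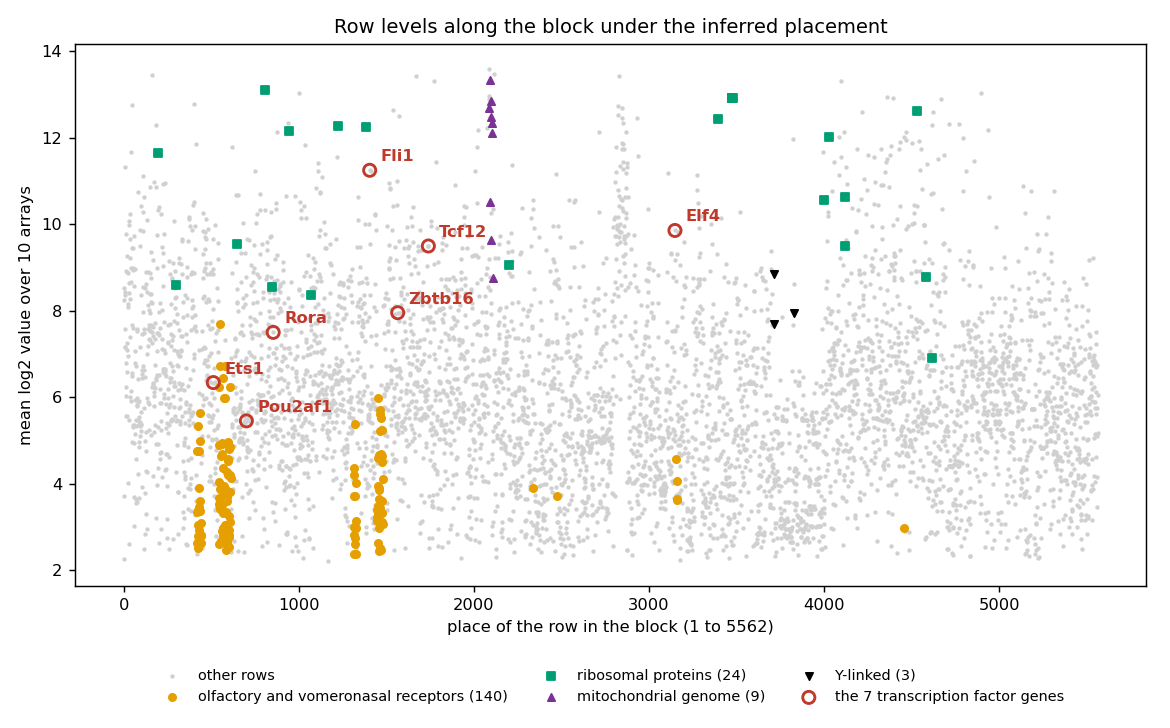
Mean log2 value over the 10 arrays (vertical axis) of each of the 5562 rows by its place in the stretch (horizontal axis), with the 7 genes circled. Receptor rows form low columns around a median of 3.63, while ribosomal protein rows have a median of 12.09 and the mitochondrial rows lie between 8.75 and 13.34.

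Within this stretch the label of the cells was checked on few markers. Robo4 and Esam, surface proteins of HSCs and endothelium, had means of 9.57 and 8.23, and the T cell receptor chains Cd3d, Cd3e and Cd3g had means of 5.31, 5.68 and 4.49. The last 3 lay below 5.99, the 95th percentile of the receptor rows, which serve here as rows without expected signal. Fhl1 and Jam3, also listed as HSC markers, had means of 7.43 and 6.25, below the highest receptor row at 7.69. Btk, listed as a B cell marker, had a mean of 8.76, above that of Esam. The neutrophil gene Ngp averaged 7.31 over Jam2- and 5.76 over Jam2+ arrays. These few markers do not settle the label of the cells. Kit, Ly6a, Slamf1 and Cd48, which define the gate, lie outside the stretch. No value of Jam2 itself is given here, so the gate that separates the groups was not checked on its RNA. The array medians lay between 5.96 and 6.05. The arrays least like the rest were Jam2+ replicate 1 and Jam2- replicate 6, whose correlations with the others averaged 0.970 and 0.968, against 0.976 to 0.980 for the other 8.

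Setting Jam2+ against Jam2- HSCs addresses whether these factors are transcribed differently in the sorted populations. Of the 7 genes, limma called 0 at an adjusted p of 0.05, and at an unadjusted p of 0.05 the count was also 0. Over all 41345 rows of the table, 0 passed (0%) and 1688, or 4.08%, had an unadjusted p under 0.05. The estimated differences of the 7 genes ran from -0.13 for Fli1 to 0.13 for Pou2af1 on the log2 scale, with a median of 0.02 against 0.01 over all rows. The median size of the difference was 0.09, against 0.08 over all rows. Groups overlapped for all 7 genes; over all rows 0.747% did not overlap. The limma adjusted p was 0.99992 for each of the 7. In bulk RNA, fewer cells that make a transcript and less of it per cell cannot be told apart.

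**Figure D2:**
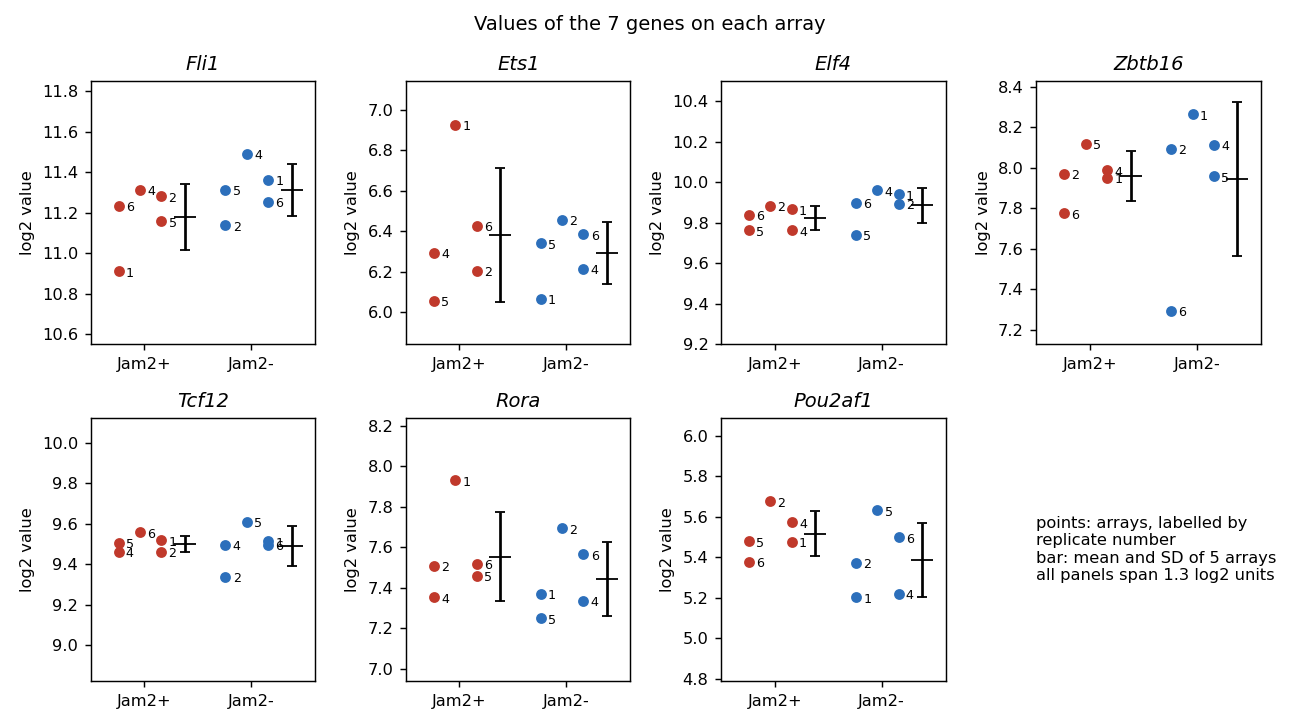
Log2 value (vertical axis) of each of the 7 genes on the 5 Jam2+ arrays (red) and the 5 Jam2- arrays (blue), numbered by replicate, with mean and SD. The groups overlap in every panel; Elf4 and Tcf12 spread over 0.22 and 0.27 in all, and single arrays stand off for Ets1, Rora and Zbtb16.

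Fli1 had log2 values of 10.91, 11.28, 11.31, 11.16 and 11.23 in Jam2+ replicates 1, 2, 4, 5 and 6. In the Jam2- arrays of the same numbers it had 11.36, 11.14, 11.49, 11.31 and 11.25. Jam2+ replicate 1 was the lowest of all 10 arrays and Jam2- replicate 4 the highest, and the other arrays of both groups were mixed. The means were 11.18 ± 0.16 (SD, n = 5) and 11.31 ± 0.13 (SD, n = 5). Jam2+ minus Jam2-, the difference was -0.13 (standard error, SE, 0.098) and its 95% interval ran from -0.35 to 0.08, a ratio between 0.785 and 1.06. The exact two-sided permutation p over the arrays was 0.198, where 0.00794 is the smallest that 5 arrays against 5 can give. Without Jam2+ replicate 1 the difference was -0.07.

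Ets1, the neighbour of Fli1, had values of 6.93, 6.20, 6.29, 6.06 and 6.43 in Jam2+ HSCs. In Jam2- HSCs it had 6.07, 6.46, 6.22, 6.34 and 6.39. Jam2+ replicate 1 was high by itself, and the other 4 Jam2+ arrays covered nearly the same range as the Jam2- arrays. The difference was 0.09 (SE 0.15, 95% interval from -0.25 to 0.43, exact permutation p = 0.698). Without Jam2+ replicate 1 its sign turned, to -0.05, so the sign of the estimate rested on that array.

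Elf4, the ETS gene on chromosome X, varied least in total range. Its values were 9.87, 9.88, 9.76, 9.76 and 9.84 in Jam2+ HSCs and 9.94, 9.89, 9.96, 9.74 and 9.90 in Jam2- HSCs. Of the Jam2- arrays, 4 lay above every Jam2+ array, and replicate 5 lay below them all. The difference was -0.06 (SE 0.069, exact permutation p = 0.198), and its 95% interval, from -0.22 to 0.09, is a ratio between 0.861 and 1.06. Without Jam2- replicate 5 the difference was -0.10, which did not pass either (limma adjusted p = 0.9998).

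Tcf12 was as steady. Its values were 9.52, 9.46, 9.46, 9.50 and 9.56 in Jam2+ HSCs and 9.51, 9.34, 9.50, 9.61 and 9.50 in Jam2- HSCs. The Jam2- arrays held both the lowest and the highest value, and the Jam2+ arrays lay between them. The difference was 0.01 (SE 0.069, exact permutation p = 0.849), and its 95% interval from -0.14 to 0.16 is a ratio between 0.906 and 1.12. Leaving out Jam2+ replicate 6 turned its sign to -0.004 and leaving out Jam2- replicate 2 to -0.03. Among the 1000 rows nearest in mean level, 3.3% had a smaller spread within groups than Tcf12, and 5.3% a smaller one than Elf4. For Fli1, Rora and Pou2af1 these shares were 55.4%, 44% and 36.5%, and for Ets1 and Zbtb16 67.8% and 76.8%.

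Zbtb16 had values of 7.95, 7.97, 7.99, 8.12 and 7.78 in Jam2+ HSCs. In Jam2- HSCs it had 8.26, 8.09, 8.11, 7.96 and 7.29. Jam2- replicate 6 was far below all other arrays, while Jam2- replicates 1, 2 and 4 lay above at least 4 of the 5 Jam2+ arrays. The SD was 0.38 (n = 5) in Jam2- and 0.12 (n = 5) in Jam2+ HSCs. The difference was 0.02 (SE 0.16, 95% interval from -0.35 to 0.38, exact permutation p = 0.929). Without Jam2- replicate 6 it was -0.15 (SE 0.093), and without Jam2+ replicate 5 it was -0.02. The first did not pass (limma adjusted p = 0.993), nor did the second (limma adjusted p = 0.999).

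Rora had values of 7.93, 7.51, 7.35, 7.46 and 7.52 in Jam2+ HSCs. In Jam2- HSCs it had 7.37, 7.69, 7.34, 7.25 and 7.56. Jam2+ replicate 1 was again the highest array, as for Ets1. The difference was 0.11 (SE 0.12, 95% interval from -0.16 to 0.38, exact permutation p = 0.444). Without Jam2+ replicate 1 it was 0.02.

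Pou2af1 had values of 5.48, 5.68, 5.57, 5.48 and 5.38 in Jam2+ HSCs and 5.20, 5.37, 5.22, 5.63 and 5.50 in Jam2- HSCs. Jam2- replicates 1, 2 and 4 lay below every Jam2+ array, and replicates 5 and 6 lay among them. The difference was 0.13 (SE 0.10, 95% interval from -0.09 to 0.35, exact permutation p = 0.198). Its mean of 5.45 was below the 95th percentile of the receptor rows, so a level above background was not shown for this B cell gene. The other 6 genes had means above that percentile. Ets1 and Rora, at 6.34 and 7.50, still lay below the highest receptor row, at 7.69. Rows differ in how brightly they report RNA, so no order of abundance between the genes is read from these levels.

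Other factors were examined from 6 lists of 150 names in all, of which 5 hold the families of the 7 genes and their partners and the last holds blood factors of other families. Apart from the 7 genes, 21 of the remaining 143 names had a row in the stretch, 8 from the family lists and 13 from the last list; limma called 0 of these in either direction, and 1 reached an unadjusted p under 0.05. The share of all rows at that unadjusted p was 4.08%, so 1 in 21 is near the background. Their median difference was 0.01, and 10 of 21 were below 0. Of 27 ETS genes 5 had a row: besides the 3 above, Elk1, which acts with serum response factor, differed by 0.04 and Etv5 by -0.12. The BTB zinc finger genes Zbtb33, Zbtb38 and Zbtb44 differed by -0.10, -0.01 and -0.10. The POU genes Pou2f3 and Pou3f4, with differences of 0.04 and 0.06, and the nuclear receptor Nr0b1, with 0.07, had means below the 95th percentile of the receptor rows. Gata1, the erythroid and megakaryocytic regulator, differed by -0.11 (SE 0.12), and Kmt2a, a histone methyltransferase that maintains Hox gene expression, by 0.01 (SE 0.11.) The 1 factor with an unadjusted p under 0.05 came from the last list and was Foxo4, a forkhead factor restrained by insulin signalling.

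Foxo4 had log2 values of 6.72, 7.33, 7.23, 7.55 and 7.36 in Jam2+ HSCs. In Jam2- HSCs it had 7.52, 7.52, 7.57, 7.76 and 7.52. Of the Jam2+ arrays, 4 lay below every Jam2- array, and replicate 5 lay among them. The difference was -0.34 (SE 0.14), and it did not pass (limma adjusted p = 0.99992). Jam2+ replicate 1, among the arrays least like the rest, held the lowest value, and the difference without it was not examined.

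**Figure D3:**
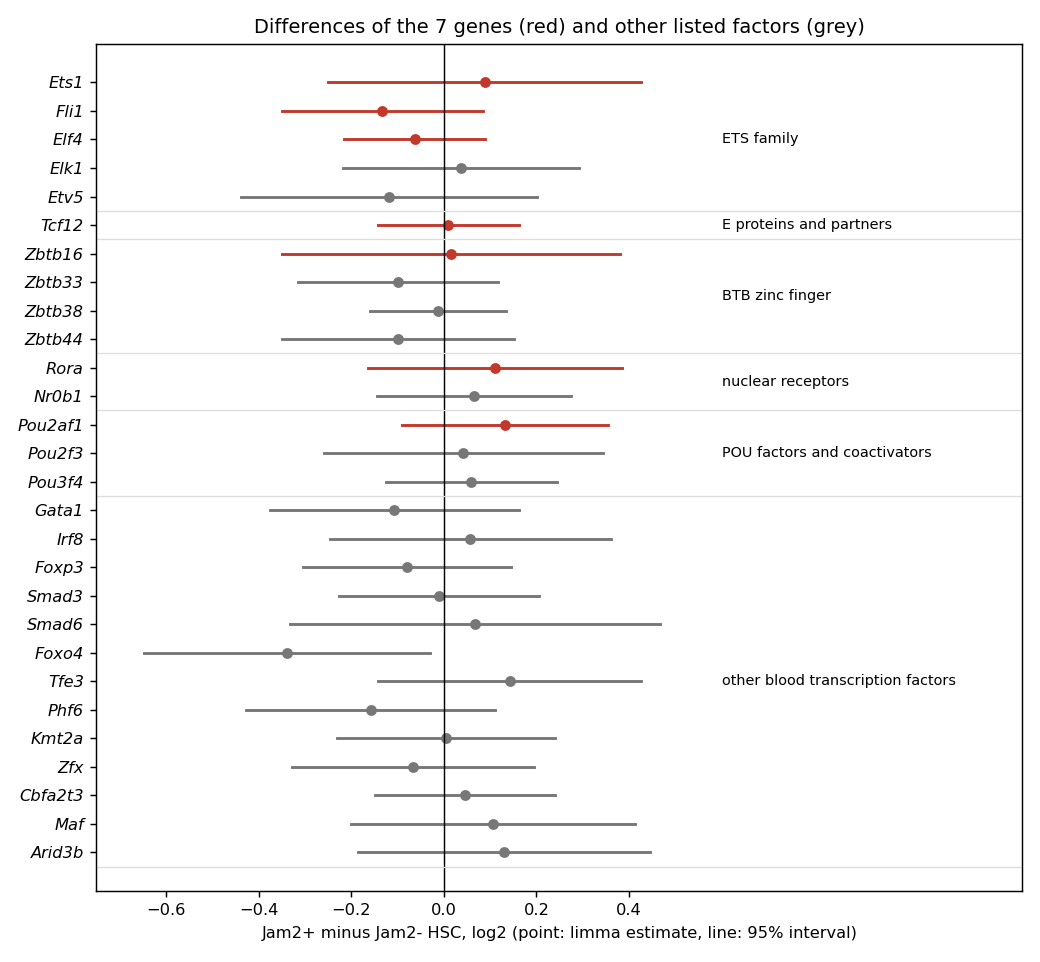
Difference between Jam2+ and Jam2- HSCs on the log2 scale (horizontal axis) with its 95% interval for the 7 genes (red) and 21 other listed factors (grey), grouped by list. The intervals of the 7 genes all contain 0, and among the other factors that of Foxo4, from -0.65 to -0.03, does not.

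The 7 genes were next compared with each other across the 10 arrays. Over 21 pairs, Pearson's r ran from -0.87 to 0.79 with a median of -0.01. Fli1 and Rora ran opposite ways: r was -0.87 (permutation p = 0.00169, Benjamini-Hochberg p = 0.0355 over the 21 pairs) and Spearman's rho was -0.83 (permutation p = 0.0046, Benjamini-Hochberg p = 0.0966), so the first passed and the second did not. Without Jam2+ replicate 1 and Jam2- replicate 4, the 2 arrays farthest from the median of Fli1, r was -0.73. It was -0.70 without Jam2+ replicate 1 alone, -0.71 without the 2 arrays that stood apart (Jam2+ replicate 1 and Jam2- replicate 6), and -0.87 after the group means were taken out. Of 1452 other genes of the stretch with a row mean above the table median of 6.00, 1 had an r with Fli1 as low as that of Rora. Points of 1 array share its cells, its labelling and its normalization. An array's mean correlation with the other arrays is lower the more it stands apart. The r of this measure was 0.50 with Fli1 (permutation p = 0.155, rho = 0.41, permutation p = 0.239). With Rora it was -0.68 (permutation p = 0.0334, rho = -0.74, permutation p = 0.0183). Over 14 such relations, 2 measures by 7 genes, neither passed (Benjamini-Hochberg p of r 0.544 and 0.333). These values of r were 0.21 and -0.60 without the same 2 arrays. What part this has in the relation of Fli1 and Rora was not tested beyond leaving out those arrays.

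None of the other 20 pairs passed the adjustment, and several changed with the arrays left out. Ets1 and Rora had an r of 0.79 (permutation p = 0.0123, Benjamini-Hochberg p = 0.13) and a rho of 0.61 (permutation p = 0.0672, Benjamini-Hochberg p = 0.353). Without Jam2+ replicate 1 r was 0.43, and without that array and Jam2+ replicate 5, the 2 farthest from the median of Ets1, it was 0.53. Ets1 and Fli1, the neighbouring genes, had an r of -0.74 (permutation p = 0.029, Benjamini-Hochberg p = 0.202) and a rho of -0.56 (permutation p = 0.0972, Benjamini-Hochberg p = 0.408). Their r was -0.29 without Jam2+ replicate 1 alone and -0.27 without Jam2- replicate 4 as well, so the size of that relation rested on Jam2+ replicate 1. Elf4 and Pou2af1 had an r of -0.66 (permutation p = 0.0384, Benjamini-Hochberg p = 0.202) and a rho of -0.61 (permutation p = 0.0668, Benjamini-Hochberg p = 0.353); without Jam2- replicate 5 and Jam2+ replicate 5, the 2 farthest from the median of Elf4, r was -0.63. Ets1 and Zbtb16 had a rho of -0.68 (permutation p = 0.0345, Benjamini-Hochberg p = 0.353) and an r of -0.31 (permutation p = 0.306, Benjamini-Hochberg p = 0.896). That r was -0.54 without Jam2+ replicates 1 and 5, and -0.66 without the 2 arrays that stood apart. Tcf12 and Rora had an r of -0.37 (permutation p = 0.279, Benjamini-Hochberg p = 0.896) and a rho of -0.20 (permutation p = 0.584, Benjamini-Hochberg p = 0.944). Their r was -0.70 without Jam2+ replicate 1 and -0.75 without the 2 arrays that stood apart, as large as for Fli1 and Rora on the same arrays. It was 0.30 without Jam2- replicates 2 and 5, the 2 farthest from the median of Tcf12, so its sign rested on which arrays were kept.

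**Figure D4:**
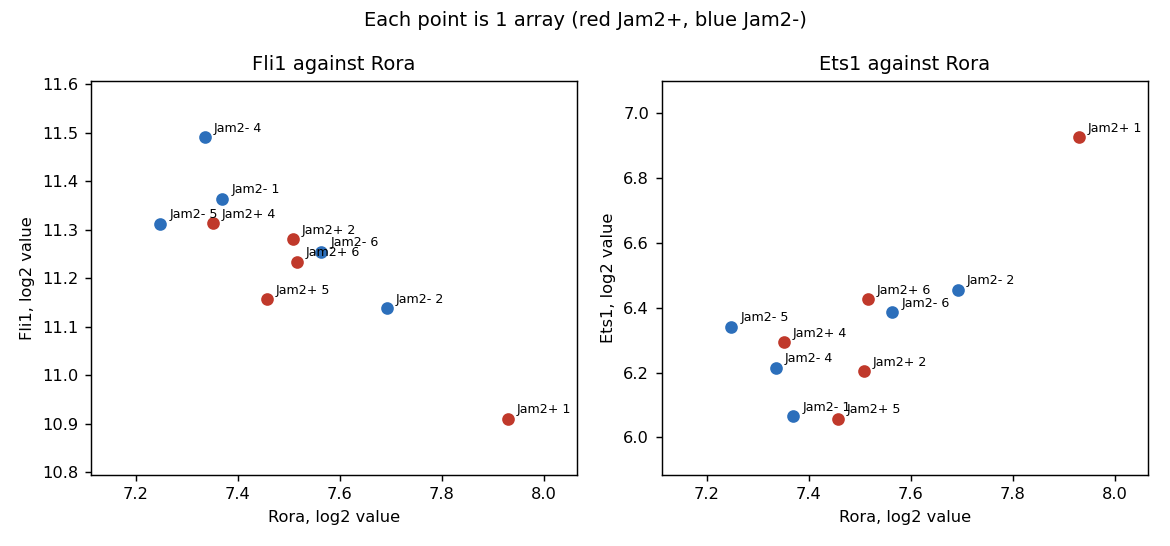
Log2 value of Fli1 (left, vertical axis) and of Ets1 (right, vertical axis) against that of Rora (horizontal axes) on the same array, with each of the 10 arrays labelled by group and replicate. Fli1 is lower on arrays where Rora is higher (r = -0.87), while the relation of Ets1 with Rora (r = 0.79) leans on Jam2+ replicate 1, without which r is 0.43.

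The genes whose pattern over the 10 arrays was most like that of each factor were picked from the same 1452, 2 per factor, so high values of r were favoured by the search. For Fli1 they were Hyou1, a chaperone of the endoplasmic reticulum, with r = 0.95, and the cohesin subunit Stag2 with r = 0.89. Without Jam2+ replicate 1 these were 0.91 and 0.77. For Zbtb16 they were Trak1, an adaptor for the transport of mitochondria, with r = 0.95, and Nicn1 with r = 0.91. These were not examined without Jam2- replicate 6, where Zbtb16 was far below all other arrays. For Ets1 they were Peak1 with r = 0.85 and Maml2, a coactivator of Notch, with r = 0.84. Without Jam2+ replicate 1 these fell to 0.76 and 0.47. Rora was most like Scaper and Gadl1, both with r = 0.88, and without the same array these were 0.69 and 0.81. Tcf12 was most like C1galt1c1, a chaperone for O-glycosylation, with r = 0.89 and the copper transporter Atp7a with r = 0.88. Elf4 was most like Rasa2, a Ras GTPase-activating protein, with r = 0.80 and Tent5a with r = 0.77, and Pou2af1 was most like the peroxiredoxin Prdx4 with r = 0.92 and Enkd1 with r = 0.85. Differences of these 14 genes between Jam2+ and Jam2- HSCs did not pass (limma adjusted p = 0.99992 for each).

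Markers of other blood cells were set beside these values. Neutrophil markers were the list whose array means did not overlap between the groups. Of 20 names 6 had a row, all 6 had a difference below 0, and limma called 0 (adjusted p = 0.99992). Of these 6, 3 reached an unadjusted p under 0.05, where 4.08% of all rows did. The lists were chosen with earlier results of these data known, so these counts are not independent of those results. The mean of the 6 ran from 5.32 to 5.43 over Jam2+ arrays and from 5.53 to 6.94 over Jam2- arrays. The granule genes Camp and Ngp had means of 4.50 and 5.76 over Jam2+ arrays and of 6.22 and 7.31 over Jam2- arrays, and Ltf, which encodes lactoferrin, had 5.25 and 6.02. For these 3 the Jam2+ mean lay below the 95th percentile of the receptor rows and the Jam2- mean above it, so no fold is given. Camp was highest in Jam2- replicates 2 and 5, at 7.88 and 7.77. In Jam2- replicates 1, 4 and 6 it was 5.59, 5.02 and 4.85, below that percentile. All 5 Jam2- values lay above the highest Jam2+ value of 4.77, and over all rows 0.747% did not overlap in either direction. Mmp8 and Cybb had means below that percentile in both groups. Across the 10 arrays, r of the 7 factors with the mean of this list ran from -0.32 for Rora to 0.24 for Fli1, and none passed over the 14 relations (lowest permutation p adjusted by Benjamini-Hochberg 0.852 for r and 0.477 for rho). The list separates the groups, so these values also carry the difference between groups. After the group means were taken out r ran from -0.65 for Elf4 to 0.48 for Pou2af1. Without Jam2- replicates 2 and 5, where the list was highest, the pooled r ran from -0.75 for Pou2af1 to 0.78 for Elf4, so it rested on those arrays.

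The other lists overlapped between the groups. The 4 HSC markers with a row, of 27 named, had a mean of 7.83 ± 0.11 (SD, n = 5) over Jam2+ and 7.91 ± 0.06 (SD, n = 5) over Jam2- arrays. Of these 4, 1 had an unadjusted p under 0.05, where 4.08% of all rows did. This was Jam3, an adhesion protein that binds Jam2. Jam3 differed by -0.25 (SE 0.11), which did not pass (limma adjusted p = 0.99992). It was higher in 4 of the 5 Jam2- arrays than in any Jam2+ array, and in Jam2- replicate 1 it lay among them. In the 5 lists that follow, the count with an unadjusted p under 0.05 was 0. The endothelial list, with Esam and Robo4, had 8.69 to 9.14 over Jam2+ and 8.81 to 9.03 over Jam2- arrays. The 6 T cell markers with a row had a mean of 5.28 to 5.42 over Jam2+ and 5.30 to 5.48 over Jam2- arrays, and all of them except Thy1, which HSCs also carry at a low level, had means below the 95th percentile of the receptor rows. The B cell list had rows for Btk and Cxcr5, with a list mean of 7.02 to 7.53 and 7.13 to 7.47. That mean describes neither gene, as Btk had a mean of 8.76 and Cxcr5 of 5.81, below the same percentile. The monocyte and macrophage list, with Cx3cr1 and Ccr2, lay at 5.55 to 5.89 and 5.49 to 5.84. Ccr2, with a mean of 4.48, lay below that percentile, and Cx3cr1, with 6.88, above it. The erythroid list, with Gata1 and Epor, lay at 7.14 to 7.23 and 7.01 to 7.38. The 15 megakaryocyte names had 0 rows in the stretch, so the platelet genes that Fli1 is known to regulate have no value here.

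**Figure D5:**
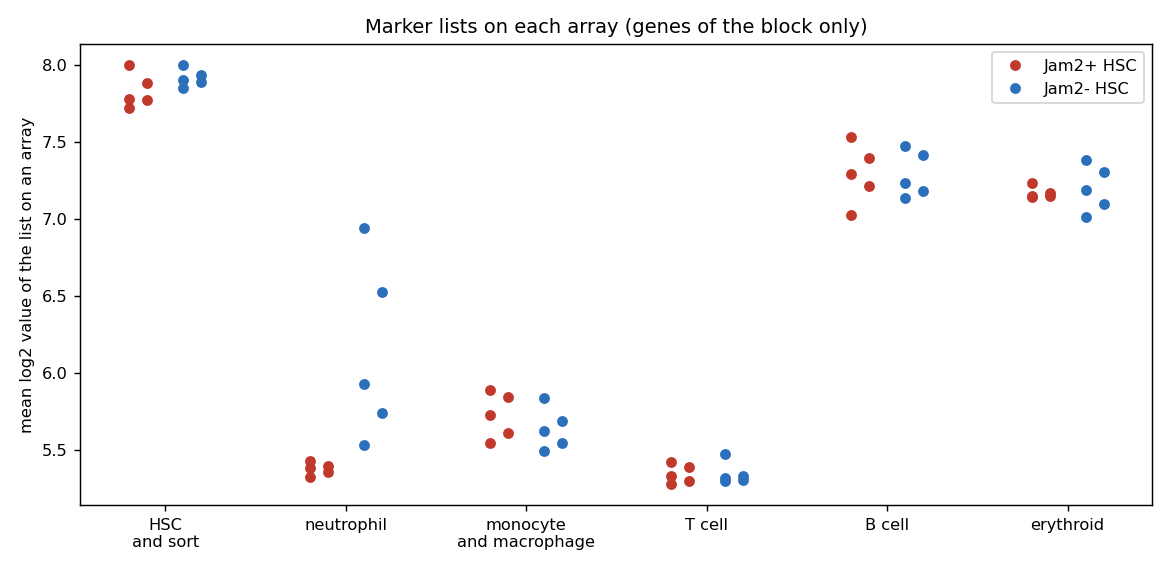
Mean log2 value (vertical axis) of the genes of each marker list that lie in the stretch, 1 point per array, for Jam2+ (red) and Jam2- HSCs (blue). Only the neutrophil list separates the groups among the 6 lists shown, with 5.32 to 5.43 against 5.53 to 6.94.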

How the data were processed

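The deposited values are log2 expression values, 1 per row and array for 41345 rows and 10 arrays; they were made with the R package oligo, per the submitters' processing notes. Its version and how background and scale were handled are not stated in the labels. IDs were displaced from their values, so the last 5562 IDs were paired in order with the first 5562 rows. A search over all lengths, added after the data were seen, gave the same length, as the one at which rows with identical values most often had the same gene among lengths with at least 20 pairs. Symbols came from the platform annotation: in this stretch 2872 IDs had 1 symbol, 397 several and 2293 none. Entrez identifiers of 2664 of the 2721 genes were in the RefSeq table of assembly GRCm38.p6, and 0 symbols differed. The brightest row stood for a gene.

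Groups were compared by limma (lmFit, eBayes) with group as the only term, fitted on all rows, with Benjamini-Hochberg adjustment over all of them at 0.05. The procedure was tested on simulated data with independent normal noise on each array. That test does not bear on arrays that share mice or stand apart from the rest. Single values were also compared by exact permutation of the arrays. Correlations used 100000 permutations. The members and lists, and the named-gene rule (the 7 genes, the listed factors, and the 2 most alike genes for each), were chosen with earlier results of these data known. Arrays give no read depth, and their number limits the precision. Tools were limma 3.58.1 in R 4.3.3 and scipy 1.17.1 in Python 3.11.15.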

Additional observations from a re-analysis of the deposited data

Results flagged for a closer look

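A value far from the rest of its group was looked for in 72 sets of 5 arrays, covering the 7 factors, the other listed factors and the marker lists. It was found 6 times, where chance at 1 in 20 gives about 3.6. Rora was 7.93 in Jam2+ replicate 1, against 7.52 in the nearest array of its group. Zbtb33, Kmt2a and Zfx were all highest in Jam2- replicate 6, at 8.21, 10.67 and 7.58, against 7.90, 10.40 and 7.08 in the nearest arrays. Foxo4 was 7.76 in Jam2- replicate 5, against 7.57. The mean of the T cell markers was 5.48 in Jam2- replicate 2, against 5.33.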

How the results depend on the processing

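The count of the 7 genes that passed was 0 under all 21 alternatives (limma adjusted p between 0.882 and 0.99999 over the genes). Pou2af1 had no value with the lowest 50% of rows left out. Fli1, Elf4, Rora and Pou2af1 kept their sign under every alternative run, and Ets1, Zbtb16 and Tcf12 did not. Several alternatives, such as the replicate block and leaving out the lowest rows, do not change the estimate. A sign could turn only under the others. With 1 array left out, Ets1 ran from -0.047 to 0.17, Zbtb16 from -0.15 to 0.10, Tcf12 from -0.028 to 0.040, Fli1 from -0.18 to -0.07, Elf4 from -0.10 to -0.04, Rora from 0.02 to 0.17 and Pou2af1 from 0.09 to 0.19. Without both Jam2+ replicate 1 and Jam2- replicate 6, Ets1 was -0.02 and Zbtb16 -0.14. With array weights Zbtb16 was -0.035 and Tcf12 -0.00066, and with arrays centred on their medians they were -0.0076 and -0.013; the cause was not tested. With the replicate number as a block, 0 of the 7 passed. Array deviations from the group means correlated at -0.02 to 0.11 between equal numbers, and the own number gave the best match for 4 of 10 arrays. These values neither show nor exclude pairing by number. Rescaling moved the median difference over all rows from 0.01 to -0.003 and -0.01. Each of the 7 genes has 1 row, so averaging rows changed nothing. What is not settled is the placement of the rows.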
